A study of Macaca mulatta with 2 samples.

Results

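The 10 genes described here encode the cyclooxygenases (*PTGS1*, *PTGS2*), the prostaglandin E synthases (*PTGES*, *PTGES2*, *PTGES3*), the prostacyclin synthase *PTGIS*, the prostacyclin receptor *PTGIR* and the prostaglandin E2 receptors *PTGER2*, *PTGER3* and *PTGER4*. They were chosen by symbol, and all 10 were found among the 16684 genes of the table. Total RNA of wild-type, untreated macaque optic nerves was sequenced as 2 libraries, named Rep1 and Rep2, from cDNA amplified for low input. The nerves were donated after death, and the methods name a 12-year-old male as their source whereas the deposited description names 2 animals, so whether the libraries share an animal is not settled. The design holds 1 condition, so no test between groups was run. With 2 libraries the smallest p of an exact sign test (two-sided) is 0.5.

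Cyclooxygenases turn arachidonic acid into the short-lived intermediate prostaglandin H2. Terminal synthases convert this into prostaglandin E2 or prostacyclin, which act on G protein-coupled receptors of nearby cells, the EP2, EP4 and prostacyclin receptors raising cAMP and EP3 mostly lowering it. COX-1, encoded by *PTGS1*, is made in many resting cells, whereas *PTGS2* encodes the inducible COX-2, which is also made at rest in parts of the central nervous system. In nerve and meninges these mediators are best known for inflammation, fever, pain and control of vessel tone.

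The levels are TPM, length-corrected reads scaled to a total of 1000000 in each library, as deposited. In Rep2 all 10 genes were above 0, from 0.570 to 236 TPM. In Rep1 *PTGES3*, *PTGES2* and *PTGIS* were above 0, and the other 7 genes were listed at 0. Of all listed genes, 60.9% were above 0 in both libraries, against 3 of these 10. Genes at 0 in Rep1 and above 0 in Rep2 made up 30.2% of the 14693 genes that had a value above 0 in either library.

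Rep1 was the shallower library. A read in Rep1 was worth 17.2 times the TPM of a read in Rep2, and the smallest whole read numbers that give the deposited values summed to at least 801597 in Rep1 and 11340650 in Rep2. Oligodendrocyte and astrocyte markers had lower sums in Rep1. Summed TPM of 6 oligodendrocyte markers was 45982 in Rep1 and 212174 in Rep2, with all 6 above 0 in both, and *MBP*, a major myelin protein, was the highest of them. That of 6 astrocyte markers, led by *GFAP*, was 774 and 5022 TPM. By contrast, 7 photoreceptor markers summed to 3319 TPM in Rep1 and 7.72 TPM in Rep2, led by *GNAT1*, the rod transducin. The median of gene-wise ratios, a scaling that weighs no gene by its abundance, put Rep1 at -1.19 relative to Rep2 on the log2 scale. The part of depth and of photoreceptor RNA in the levels below was not tested.

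Of the cyclooxygenases, *PTGS2* lies on chromosome 1 of the Mmul_10 genome from 43912072 to 43921017 on the minus strand, and its longest annotated transcript has 10 exons. It was at 25.5 TPM in Rep2, percentile 65.7 among the 14693 genes with a value above 0, and was listed at 0 in Rep1. The Rep2 value rested on at least 378 reads. The same level in Rep1 would have given at least 22.0 reads, or 9.63 after the general shift between the libraries. A count of 0 in Rep1 allows up to 3 reads, which are worth at most 3.48 TPM, so *PTGS2* in Rep2 was at least 7.33-fold above this limit in TPM as deposited and at least 3.21-fold after the shift. Of the 200 genes closest to it in Rep2 level, 16% were also listed at 0 in Rep1. Such limits cover counting error only, because amplified copies of 1 molecule are not independent.

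*PTGS1*, on chromosome 15 from 20307153 to 20331953 on the minus strand, had 3.98 TPM in Rep2, whereas Rep1 listed it at 0. Its Rep2 value rested on at least 10 reads, and 3 reads in Rep1 would be worth up to 20.5 TPM. These bounds go with a recovered length of at least 144.5 bases, against a median of 3859 bases for its annotated transcripts. They therefore do not settle whether a level like that of Rep2 was detectable in Rep1. Among the 200 genes nearest in Rep2 level, 39.5% were at 0 in Rep1. The genes with the most similar values over the 2 libraries were *ZNF879*, *REL* and *MATN3*, also listed at 0 in Rep1, and 754 genes lay within a log2 distance of 0.5. In Rep2 the *PTGS2* transcript thus stood 6.41-fold above that of *PTGS1* in TPM, and *PTGS1* made up 13.5% of cyclooxygenase TPM. Rep1 gives no second value for this ratio, since both genes were listed at 0.

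The coding sequences of the 2 cyclooxygenases were compared to see whether reads could be shared between them. Their longest identical run was 15 bases, shorter than a usual read, and *PTGS2* had no 31-base word with an exact copy elsewhere in the genome. The stretches around that run, from the RefSeq transcripts of Mmul_10, show it in capitals, at coding bases 1039 to 1101 of *PTGS1* and 901 to 963 of *PTGS2*.
PTGS1: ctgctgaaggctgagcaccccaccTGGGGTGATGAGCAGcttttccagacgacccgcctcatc
PTGS2: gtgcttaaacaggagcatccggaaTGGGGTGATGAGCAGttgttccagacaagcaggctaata

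Of the prostaglandin E synthases, *PTGES3* was the most abundant of all 10 genes in either library. It encodes p23, a co-chaperone of HSP90 that was also described as a cytosolic prostaglandin E synthase, and lies on chromosome 11 from 56240089 to 56266116 on the minus strand. Rep1 gave 245 TPM and Rep2 236 TPM, a mean of 240 ± 6.69 TPM (SD, n = 2) at percentile 95.7. These values rested on at least 318 and 5253 reads. The libraries differed by 0.06 on the log2(TPM + 1) scale (Rep1 minus Rep2) as deposited and by 1.24 after scaling by the median of ratios, so the near equality holds only for TPM as deposited. The listed genes nearest to it over the 2 libraries were *NFE2L1*, *RPL4* and *RPS14*, at log2 distances of 0.092, 0.099 and 0.11, and 26 genes lay within 0.5.

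The *PTGES3* level carries an uncertainty that the other 9 genes hardly share. Of the 31-base words of its transcript, 45.2% occurred exactly elsewhere in Mmul_10, at 9 loci. The words with a copy included 227 of the 450 words in its coding part. Of these loci, 5 overlapped an annotated pseudogene. The sharing was at most 3.61% of words for each of the other genes, *PTGES* being the highest, and 0 for 5 of them. The copy that holds most words, 588 of 1847, lies on chromosome 7 from 82360064 to 82361605, within a transcribed pseudogene. In the first 90 coding bases it differed from *PTGES3* at 2 positions, which are in capitals below. The copy's stretch lies at chr7:82361291-82361380 on the minus strand.
PTGES3: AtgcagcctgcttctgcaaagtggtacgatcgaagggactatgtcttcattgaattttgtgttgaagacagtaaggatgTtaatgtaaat
PTGES3 copy: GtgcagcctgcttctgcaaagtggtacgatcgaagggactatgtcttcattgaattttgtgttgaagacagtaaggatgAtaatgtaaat
Reads from words like these can come from either locus, and how reads with several alignments were counted is not given in the sources used here. The plot of copies along the transcript shows that the shared words were spread over its length.

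**Figure D1:**
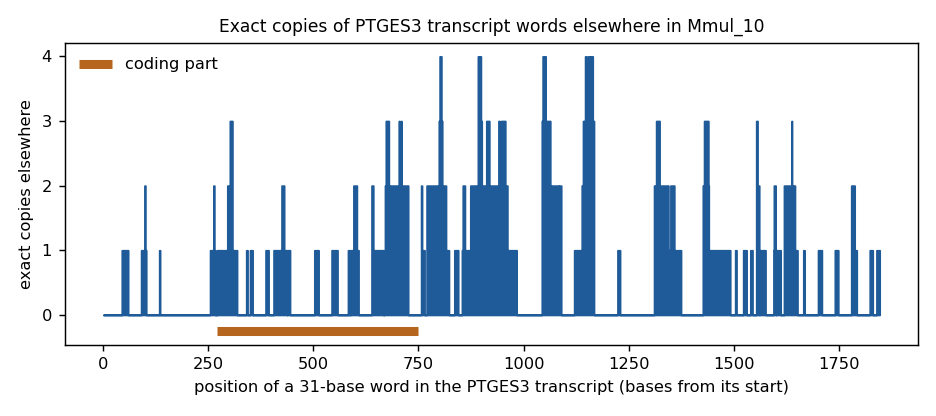
Number of exact copies elsewhere in Mmul_10 (y axis) of each 31-base word of the PTGES3 transcript, by its position in bases from the transcript start (x axis), with the coding part as a bar. Up to 4 copies of a word were found, and 45.2% of the words had at least 1.

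*PTGES2*, the membrane-associated prostaglandin E synthase 2, lies on chromosome 15 from 12468386 to 12476684 on the plus strand. Its level in Rep1 was 15.8 TPM, that in Rep2 70.7 TPM, a mean of 43.3 ± 38.8 TPM (SD, n = 2) at percentile 77.7. Rep2 was 4.46-fold higher, on at least 7 and 537 reads. Taking these lowest read numbers, the exact 95% counting interval was 2.15 to 11.2. After the median of ratios the fold was 1.96, with an interval of 0.942 to 4.89 on the same numbers. This interval includes equal levels, but higher true read numbers would narrow it, so equality is not settled. The log2 difference (Rep1 minus Rep2) after that scaling was -0.94, against -2.09 as deposited.

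*PTGES* encodes the inducible microsomal synthase, which acts with COX-2, and lies on chromosome 15 from 10773986 to 10789452 on the plus strand. Rep2 gave 11.4 TPM on at least 60 reads, and Rep1 listed it at 0. The Rep2 level would have given at least 3.49 reads in Rep1, and 20% of the 200 genes nearest in Rep2 level were at 0 there. As deposited it was at least 1.16-fold above the limit of 3 reads. After the general shift its level would have given at least 1.53 reads, a lower bound that does not settle whether it passed that limit. In Rep2 it stood at 0.446 times the level of *PTGS2*.

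Within the 3 synthases, *PTGES3* took 93.9% of TPM in Rep1 and 74.2% in Rep2, a mean of 84.0% ± 14.0 (SD, n = 2). *PTGES2* took 6.07% and 22.3%. *PTGES*, listed at 0 in Rep1, took 3.58% in Rep2. The order *PTGES3*, *PTGES2*, *PTGES* was therefore the same in both libraries, while the gap between *PTGES3* and *PTGES2* was 15.5-fold in Rep1 and 3.33-fold in Rep2.

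*PTGIS*, the cytochrome P450 enzyme that makes prostacyclin, lies on chromosome 10 from 84722873 to 84788273 on the minus strand. Rep1 gave 0.285 TPM and Rep2 11.0 TPM. The first value rested on at least 1 read and the second on at least 662, where the Rep2 level would have given at least 38.5 reads in Rep1. Taking these lowest read numbers, Rep2 was 38.5-fold higher with an exact 95% counting interval of 6.89 to 1524. After the general shift this became 16.9-fold, with an interval of 3.02 to 667. Among the 200 genes nearest in Rep2 level, 21.5% were at 0 in Rep1.

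*PTGIR*, the receptor for prostacyclin, lies on chromosome 19 from 46631512 to 46636432 on the minus strand and was at 2.26 TPM in Rep2, on at least 35 reads. It was listed at 0 in Rep1, where 3 reads would be worth up to 3.32 TPM. In Rep2 the *PTGIS* transcript stood 4.87-fold above that of *PTGIR* in TPM.

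Of the prostaglandin E2 receptors, *PTGER4*, which encodes EP4, was the highest in Rep2 at 12.9 TPM. It lies on chromosome 6 from 40540897 to 40554679 on the plus strand. The recovered bound was low, at least 9 reads, and 21.0% of the 200 genes nearest in Rep2 level were at 0 in Rep1, as *PTGER4* was. *PTGER3*, which encodes EP3, lies on chromosome 1 from 153398960 to 153601979 on the plus strand and was at 3.18 TPM in Rep2 on at least 107 reads. A level like this would have given at least 6.23 reads in Rep1, where it was listed at 0, so it was at least 2.08-fold above the limit of 3 reads. After the general shift the expected number was at least 2.73 reads, a lower bound that does not settle whether it passed that limit.

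*PTGER2*, which encodes EP2, lies on chromosome 7 from 114426946 to 114441300 on the plus strand. It was the lowest of the 10 genes, at 0.570 TPM in Rep2 on at least 15 reads, and was listed at 0 in Rep1, as were 75.5% of the 200 genes nearest in Rep2 level. Of the summed Rep2 TPM of these 3 receptors and *PTGIR*, *PTGER4* took 68.3%, *PTGER3* 16.8%, *PTGIR* 11.9% and *PTGER2* 3.01%. All 4 were listed at 0 in Rep1, so their order comes from Rep2 alone. Their coding sequences shared no run over 18 bases with each other.

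**Figure D2:**
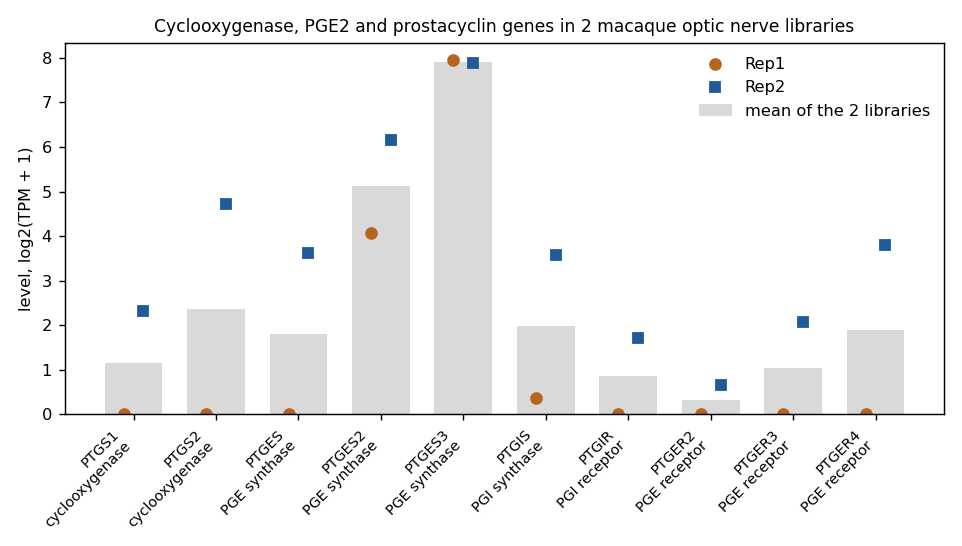
Level of each of the 10 genes on the log2(TPM + 1) scale (y axis) in Rep1 (circles) and Rep2 (squares), with bars for the mean of the 2 libraries. PTGES3 stood at 245 and 236 TPM, whereas 7 genes lay at 0 in Rep1.

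By mean TPM the order was *PTGES3* (240), *PTGES2* (43.3), *PTGS2* (12.7), *PTGER4* (6.47), *PTGES* (5.68), *PTGIS* (5.64), *PTGS1* (1.99), *PTGER3* (1.59), *PTGIR* (1.13) and *PTGER2* (0.285). Except for *PTGES3*, the SD was 38.8 TPM for *PTGES2* and from 0.403 to 18.0 TPM for the others. Differences between genes were set against the spread of 1 library, an SD taken from how Rep1 and Rep2 differed over the 200 genes of most similar mean. A pair counted as different above 2 SDs with 1 order in both libraries. Genes that were both listed at 0 in Rep1 have no order there, so a pair of them could not pass. None of the 9 pairs of neighbours in this order differed beyond that spread, but most of them could not pass for want of 1 order. The neighbours with 1 order in both libraries were *PTGES3* and *PTGES2*, 1.62 SDs apart, *PTGES2* and *PTGS2*, 1.44, and *PTGIS* and *PTGS1*, 0.483. Of all 45 pairs 12 differed beyond the spread, namely *PTGES3* against the 8 genes from *PTGS2* downwards and *PTGES2* against *PTGS1*, *PTGER3*, *PTGIR* and *PTGER2*. Levels of different genes also depend on the gene lengths the authors divided by, which are not given in the sources used here. For *PTGIS* the length recovered from the values was at least 3461 bases, against a median of 2376.5 bases for its annotated transcripts. For *PTGER3* it was at least 1932.5 against 1872.5 bases. The bounds of the other genes lay below their medians, furthest for *PTGER4* (40 against 3022 bases) and *PTGS1* (144.5 against 3859 bases). For *PTGES* they were 303.5 against 1011 bases and for *PTGES2* 436.5 against 1978.5 bases. Read numbers and lengths share the factor that cancels, so such read bounds may lie far below the true numbers. The length of merged exons was not compared.

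**Figure D3:**
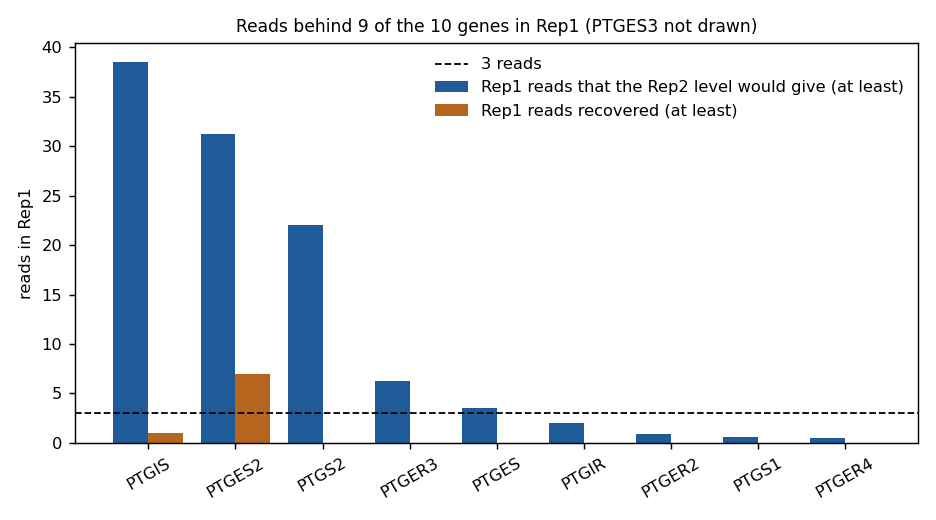
Reads in Rep1 (y axis) for 9 of the genes: the number that the Rep2 level would give (left bars) and the number recovered (right bars), both lower bounds, with a line at 3 reads. PTGIS, PTGES2 and PTGS2 would have given at least 38.5, 31.3 and 22.0 reads, against at least 1 and 7 and a value listed at 0. The low bars of PTGS1 and PTGER4 go with recovered lengths far below those of their transcripts.

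Between the libraries, 8 of the 10 genes were at least 2-fold lower in Rep1 in log2(TPM + 1), a scale on which changes of low genes come out too small, and none was at least 2-fold higher. Over the 14693 genes, 51.3% were at least 2-fold lower and 14.8% at least 2-fold higher. The median difference of the 10 genes was -2.20 (Rep1 minus Rep2), against -1.07 over all of those genes. After the median of ratios 7 of the 10 were at least 2-fold lower, against 33.8% of all genes, and 1, *PTGES3*, was at least 2-fold higher, against 23.7%. The genes under a 2-fold difference as deposited were *PTGES3* and *PTGER2*.

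The rest of the prostanoid pathway was examined by list. Of 4 listed synthases and reductases outside the 10 genes, 3 were at least 2-fold lower in Rep1 and *TBXAS1*, thromboxane A synthase, was higher, at 11.7 and 4.61 TPM (Rep1 and Rep2). *PTGDS*, the lipocalin-type prostaglandin D synthase, was at 1750 and 13774 TPM (Rep1 and Rep2) and *AKR1B1*, an aldose reductase that also makes prostaglandin F2α, at 30.3 and 192 TPM, while *HPGDS*, the other prostaglandin D synthase, was at 1.72 and 15.1 TPM. Of the 5 other prostanoid receptors, *PTGFR* (0.453 and 4.63 TPM) was above 0 in both libraries, and *PTGDR* (7.66 TPM) and *PTGER1* (1.82 TPM) were listed at 0 in Rep1. *PTGER4* was therefore the highest prostanoid receptor gene of Rep2, ahead of *PTGDR*.

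All 4 listed genes of prostaglandin transport and breakdown were above 0 in both libraries. *HPGD*, which inactivates prostaglandin E2 by oxidation, had 12.7 and 51.9 TPM (Rep1 and Rep2). The transporter gene *ABCC4*, whose product exports prostaglandins, was at 2.19 and 9.96 TPM, and *PTGR2*, a reductase of the next step, at 0.777 and 10.3 TPM. The uptake transporter gene *SLCO2A1* had the lowest mean of the 4.

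Genes below the receptors and partners of p23 were counted against the shares over all genes, 51.3% lower and 14.8% higher. Of 23 cAMP signalling genes, 11 were at least 2-fold lower and 8 at least 2-fold higher in Rep1. *GNAI2*, an inhibitory G protein subunit, was at 1115 and 128 TPM (Rep1 and Rep2), *PRKAR1A*, a regulatory subunit of protein kinase A, at 498 and 489 TPM, and *CREB1*, a transcription factor activated by cAMP, at 290 and 53.0 TPM. Of 14 genes of the HSP90 cycle, 7 were lower and 3 higher. *HSP90AA1* was at 735 and 1513 TPM, *DNAJB1* at 413 and 574 TPM and *DNAJA1* at 612 and 165 TPM. In Rep1 *PTGES3*, at 245 TPM, lay below all of these named partners. In Rep2, at 236 TPM, it lay below *HSP90AA1* and *DNAJB1* and above *DNAJA1*.

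Regulators of the *PTGS2* transcript were above 0 in both libraries for all 12 genes, among them those at low levels such as *IL1B* and *TNF*. *NFKBIA*, the inhibitor of NF-κB that NF-κB itself induces, was at 768 and 1109 TPM (Rep1 and Rep2). *ZFP36*, whose protein speeds the decay of AU-rich transcripts such as *PTGS2*, was at 195 and 1192 TPM, and *CELF2*, an RNA-binding protein that lowers its translation, at 1005 and 44.7 TPM. Of the 12 genes, 4 were at least 2-fold lower in Rep1 and 3 higher. The median differences of the cAMP, HSP90 and *PTGS2* regulator lists, at -0.44, -0.999 and -0.60 as deposited, turned positive under the median of ratios.

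**Figure D4:**
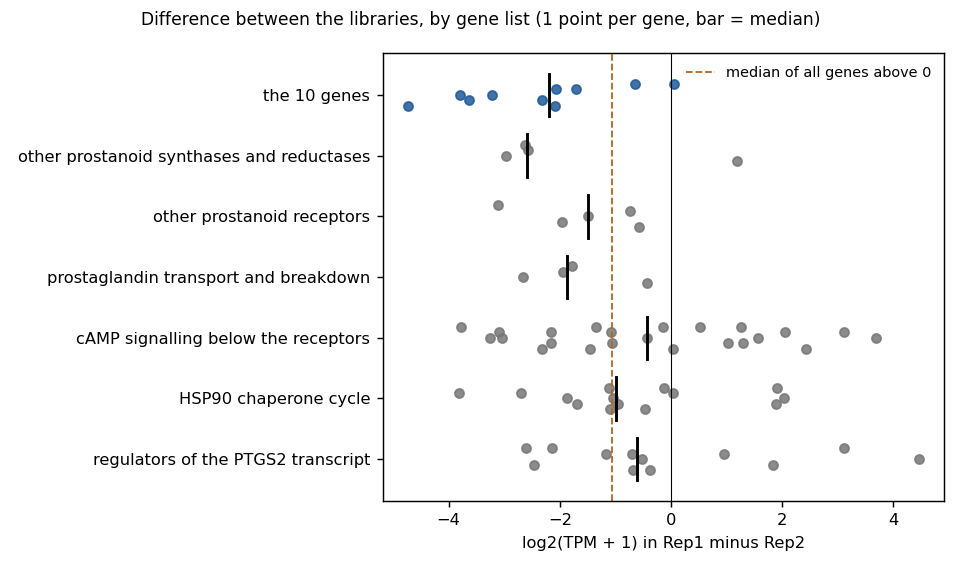
Difference in log2(TPM + 1), Rep1 minus Rep2 (x axis), of each gene above 0 in at least 1 library, by list, with black bars for list medians and a dashed line for the median of all such genes (-1.07). The median of the 10 genes was -2.20; the medians of the lowest 3 lists turn positive after median-of-ratios scaling.

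These are bulk levels, so fewer cells of a type and less RNA per cell cannot be told apart, and the levels of markers of other cell types are set beside them here. Of 6 mural markers 5 were above 0 in both, with summed TPM of 220 in Rep1 and 1187 in Rep2, *ACTA2* being the highest and *NOTCH3* at 0 in Rep1. The 6 endothelial markers, led by *PECAM1*, summed to 52.3 and 125 TPM, with *VWF* at 0 in Rep1, and the 5 meningeal fibroblast markers, led by *DCN*, to 1518 and 14753 TPM. The 7 microglia and macrophage markers summed to 176 and 189 TPM. The most abundant of them, *AIF1*, was higher in Rep1 (113 and 64.5 TPM) and *CSF1R* was at 61.3 and 62.2 TPM, while *TREM2*, *CD163* and *MRC1* were at 0 in Rep1. Of blood cell markers, 4 listed platelet genes summed to 5.02 and 16.9 TPM, with *TREML1* the highest, *ITGA2B* at 0 in Rep1 and *GP9* at 0 in both. All 4 listed neutrophil genes were at 0 in Rep1 and summed to 2.96 TPM in Rep2, with *S100A9* the highest and *CXCR2* at 0. *CRX* was the photoreceptor marker at 0 in Rep2. The part of these cells in the levels of the 10 genes was not tested.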

How the data were processed

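The authors extracted total RNA from macaque optic nerves and prepared cDNA libraries using a SMARTer v4 kit for ultra-low input. Per the methods and the submitters' processing notes, reads were checked with FastQC 0.11.9, trimmed with Trim Galore 0.6.6, aligned to Mmul_10 with STAR 2.7.1a and counted with featureCounts 1.5.3. The authors deposited TPM for 16684 genes in 2 columns, Rep1 and Rep2, each summing to 1000000. The use of strand and the gene lengths are not given in the sources used here. The columns do not name the sample titles and were used as 2 replicates of 1 group, and nothing beyond the deposited description says that they came from separate animals.

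Python 3.11.15 was used with scipy 1.17.1, pandas 2.3.3 and numpy 2.4.6, and plots were made in matplotlib 3.10.9. From ratios of TPM the lowest possible read numbers were derived, with gene lengths in steps of 0.5 base, within a tolerance of 1e-12, which succeeded with a product under 1000000000 for 99.99% of genes above 0. Both are lower bounds, since a common factor cancels. In a simulation of the 16684 genes every recovered number was a divisor of the true one, and 51.3% of the genes above 0 only in Rep2 were exact.

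Differences were taken as log2(TPM + 1), and the simulated SD of 0.5 was recovered as 0.498. All listed symbols matched the RefSeq annotation of Mmul_10, which is the build the authors used. No gene of the 10 overlapped another annotated gene. Copies were exact 31-base words outside the gene, joined into a locus within 5000 bases. The rule named all 10 genes, the 3 highest of each pathway list, the genes nearest to *PTGES3* and *PTGS1*, and of each marker list the highest and those at 0. *TBXAS1*, *SLCO2A1*, *CSF1R*, *IL1B* and *TNF* fall outside that rule and were named after their values were seen. Of the fixed lists, *PRXL2B*, *AKR1C3*, *CBR1*, *PTGR3*, *GNAS*, *PF4* and *FCGR3* were not analysed here. The members and lists were chosen with earlier results of these data known. Alternatives were another pseudocount, median-of-ratios scaling, TPM without the 10 genes of highest mean, other averages and sets of genes, 500 nearest genes, another centre of the SD and each library alone.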

Additional observations from a re-analysis of the deposited data

How the results depend on the processing

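No paired analysis was possible because there is 1 condition and nothing to pair across. Leaving the single libraries aside, 81 values were recomputed, of which 66 stayed within a set margin, 12 moved further and 3 turned sign. For a level the margin was its SD over the 2 libraries. This SD is larger than the mean for each of the 7 genes listed at 0 in Rep1, so their levels could hardly move. The *PTGS1* and *PTGER4* shares could not change under scaling, so the count of 66 is no measure of stability. The 10 genes had a median log2 difference of -4.94 when 0.1 replaced 1 as the pseudocount, since this widens differences from 0. Under the median of ratios the medians of cAMP signalling (0.64), the HSP90 cycle (0.19) and *PTGS2* regulators (0.52) became positive, as this scaling raises Rep1. The mean of *PTGES3* was 263 TPM under that scaling and 301 TPM without the 10 most abundant genes, beyond its small SD. Gene pairs beyond the spread numbered 12 to 15 under the 4 alternatives of that count, with no neighbours among them. Neighbours both listed at 0 in Rep1 could not be among them under any of these. The *PTGES3* share of synthase TPM ran from 74.2% to 93.9% between the single libraries, whereas the *PTGS1* (13.5%) and *PTGER4* (68.3%) shares exist in Rep2 only. A sign or rank of the 7 genes listed at 0 rests on Rep2. By the lowest read numbers, the Rep2 levels of *PTGS1*, *PTGIR*, *PTGER2* and *PTGER4* would give under 3 reads in Rep1 under either scaling. The same holds for *PTGES* and *PTGER3* after the median of ratios. True read numbers can be higher. For *PTGS1* and *PTGER4* the recovered lengths, 144.5 and 40 bases, lay far below their coding lengths of 1896 and 1518 bases. Their bounds therefore do not settle whether the Rep2 level would give 3 reads in Rep1. The part of depth in these values at 0 was not tested.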
